A study of Mus musculus with 8 samples.

Results

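The exchange of 1 compound for another in an otherwise fixed cocktail was examined in mouse embryonic fibroblasts. Cells given E-616452 (labelled CFAE+6, 2 libraries) were set against cells given A-83-01 (CFAE+8, 2 libraries), after 4 days in both cases. These 4 libraries were picked by their column names in the count table, out of 8 in the series. The cells of all 4 were wild-type embryonic fibroblasts, and all 4 received CHIR99021 (C), Forskolin (F), AM580 (A) and the compound labelled EPZ04777 (E). CHIR99021 blocks the kinase GSK-3 and so raises Wnt signalling, Forskolin raises cyclic AMP, and AM580 activates a retinoic acid receptor. EPZ04777 is taken here, from its name, as an inhibitor of the histone methyltransferase DOT1L. The other libraries were 2 of the same cells in fibroblast medium without the cocktail (MEF) and 2 with A-83-01 plus MSC2530818 (CFAE+8+MSC), an inhibitor of the Mediator kinases. They serve below as reference levels and in the estimate of the spread. The labels give no doses, no pooling of embryos and no word on whether replicate libraries stem from different cultures. P-values therefore measure the spread between these libraries, which may be technical, and a difference between the compounds cannot be told apart from a difference in dose.

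A-83-01 and E-616452 (also sold as RepSox) are both inhibitors of the TGF-beta type I receptor kinase. TGF-beta ligands bind the type II receptor, which activates the type I receptor, and the type I receptor phosphorylates the transcription factors SMAD2 and SMAD3. These enter the nucleus with SMAD4 and switch on genes for matrix proteins, protease inhibitors and their own inhibitors. In fibroblasts the same signal drives the myofibroblast state, in which the cells make smooth muscle actin and contractile proteins with the help of serum response factor. Receptor blockers are used in chemical reprogramming to weaken the fibroblast programme.

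Each of the 4 libraries held 11036764 to 11380982 counts, and 15470 of the 54532 genes in the table had enough counts to be tested. Levels are given as CPM, counts per fixed library total after scaling of the libraries, and the 2 values in a sentence are replicates 1 and 2. A change is the log2 fold change of CFAE+6 over CFAE+8 with its SE, from edgeR's quasi-likelihood test, and called genes are those whose p, adjusted by Benjamini-Hochberg over all genes tested, was 0.05 or less. On the first principal component of the 4 libraries, which held 69.0% of their variance, both CFAE+6 libraries lay apart from both CFAE+8 libraries. Mitochondrial genes took 2.21% and 2.08% of counts in CFAE+6 and 1.96% and 2.00% in CFAE+8. The fibroblast genes Vim, at 2638 and 2795 CPM in CFAE+6, and Thy1, at 1529.9 and 1540.4 CPM, were abundant in all 4. Haemoglobin genes had too few counts to be tested, and the level of the common leukocyte gene Ptprc was 0.256 and 0.0848 CPM in CFAE+8 and 0.0881 and 0.0856 CPM in CFAE+6.

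With E-616452 in place of A-83-01, 2215 genes were higher (14.3% of those tested) and 1901 lower (12.3%), 26.6% in all. Most differences were small: 2538 of the called genes, 61.7%, differed by less than 1.5-fold. At 2-fold or more the balance was uneven, with 691 genes higher (4.47%) and 171 lower (1.11%). Of the 691 genes, 265 were under 1 CPM in CFAE+8, and 349 reached at least 5 CPM in CFAE+6. Both CFAE+6 libraries lay above both CFAE+8 libraries for 30.9% of genes and below them for 30.0%. When the test asked for more than a 1.2-fold change, 1085 genes were higher and 569 lower, and DESeq2 called 1449 and 1076. The number of lower genes fell to 1260 without CFAE+8 replicate 1 and to 1184 without CFAE+8 replicate 2. The median log2 change over all genes was 0.00 and the middle 50% lay between -0.19 and 0.21, which is the background for the gene groups below. For the counts of called members in every list, the background is 14.3% higher, 12.3% lower and 26.6% called. In short lists such counts rest on few genes.

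**Figure D1:**
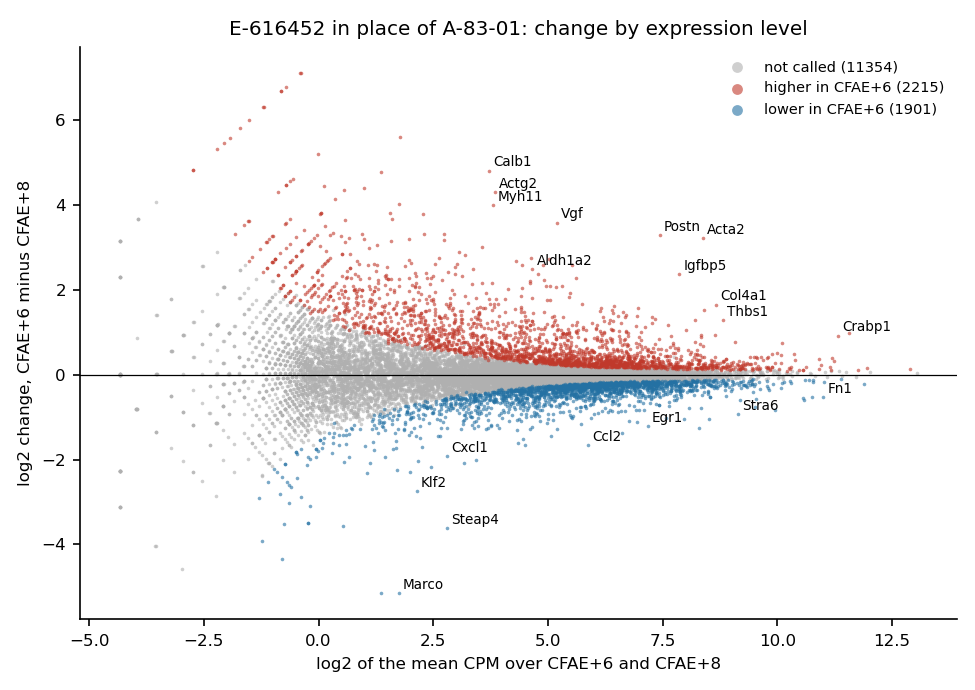
Log2 change (CFAE+6 minus CFAE+8) against the log2 of the mean CPM over the 4 libraries, 1 point per tested gene, red where higher and blue where lower in CFAE+6 at an adjusted p of 0.05. Above 2-fold the red points (691) outnumber the blue (171), and the points of Acta2, Postn and Igfbp5 combine a high level with a large rise.

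In the receptor pathway itself the called genes differed by less than 2-fold, apart from Fstl3. Of 20 tested genes for TGF-beta ligands, receptors and SMADs, 5 were higher and 5 lower, with a median log2 change of 0.05. Among the ligands, Tgfb2 rose from 247 and 238 to 365 and 359 CPM (log2 change 0.58 ± 0.05, adjusted p = 1.2e-10) and Tgfb3 rose from 50.8 and 56.1 to 83.3 and 86.1 CPM (log2 change 0.66 ± 0.07, adjusted p = 5.4e-09), while Tgfb1 fell from 62.4 and 62.3 to 51.0 and 51.2 CPM (log2 change -0.29 ± 0.07, adjusted p = 0.0029). Exons of Tgfb3 share 12.4% of their length with another gene, so its value is uncertain. The activin subunit gene Inhba differed by 0.17 ± 0.05 (adjusted p = 0.012), a call that was lost when CFAE+6 replicate 1 or either CFAE+8 library was left out. Tgfbr1, which encodes the receptor that both compounds block, was at 46.2 and 43.6 CPM with A-83-01 and 53.3 and 55.7 CPM with E-616452 (log2 change 0.28 ± 0.08, adjusted p = 0.0087). DESeq2 did not call this rise (adjusted p = 0.063), nor was it called without CFAE+6 replicate 2 (0.071) or without CFAE+8 replicate 2 (0.11). For the type II receptor gene Tgfbr2 no difference was found, at 244 and 239.8 CPM against 239.9 and 241 CPM, and the 95% interval of its log2 change was -0.10 to 0.09. Of the signal transducers Smad2, Smad3 and Smad4 none was called, with changes between -0.18 and 0.15. Among extracellular regulators, Fst, which binds activin, rose from 46.5 and 50.1 to 85.0 and 85.6 CPM (0.82 ± 0.07). Ltbp3, which stores latent TGF-beta in the matrix, fell from 212 and 215 to 126 and 134 CPM (-0.71 ± 0.05). The activin binder Fstl3 fell from a mean of 5.15 to 2.09 CPM, but 47.3% of its exon length is shared with another gene.

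The targets of TGF-beta did not move as 1 block. Of 30 tested target genes, 10 were higher and 13 lower with E-616452, and the median log2 change was -0.12. The largest rises were in Postn and Acta2. Periostin (Postn, ENSMUSG00000027750, mm10 chromosome 3, 54361109 to 54391037), a secreted matrix protein of activated fibroblasts, stood at 31.2 and 33.3 CPM in the CFAE+8 libraries and 317 and 312 CPM in the CFAE+6 libraries. That is a 9.75-fold difference (log2 change 3.28 ± 0.06, adjusted p = 3.4e-26), and it put CFAE+6 close to the 354 and 351 CPM of MEF. Thbs1, whose product thrombospondin releases latent TGF-beta, rose from 259 and 258 to 649 and 621 CPM (log2 change 1.30 ± 0.04, adjusted p = 1.5e-21), far below the 11356 and 11974 CPM of MEF. Ctgf, a matricellular growth factor gene, rose from 8.19 and 8.14 to 17.3 and 18.0 CPM (1.11 ± 0.11), and 23.2% of its exon length is shared with another gene. Eln, which encodes elastin, rose from 14.9 and 13.7 to 47.6 and 50.4 CPM (1.77 ± 0.11), and Lox, whose product crosslinks elastin and collagen, rose from 23.1 and 23.2 to 43.8 and 35.8 CPM (0.78 ± 0.08). The MEF means were 603 CPM for Ctgf, 89.0 CPM for Eln and 4254 CPM for Lox, so Ctgf and Lox stayed far below MEF with either inhibitor. Other risers included Cnn1, Cdkn2b, a cell cycle inhibitor gene (0.53 ± 0.06), and Pmepa1 (0.34 ± 0.06).

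The lower targets differed by less. Timp1, an inhibitor of metalloproteinases, fell from 151 and 147 to 68.9 and 70.2 CPM (log2 change -1.10 ± 0.06, adjusted p = 6.3e-15), the only lower target past 2-fold. Ltbp2 fell from 106 and 103 to 59.3 and 58.5 CPM (-0.83 ± 0.06), Bgn, the biglycan gene, by a like amount (-0.58 ± 0.05) and Fn1, the fibronectin gene, from 2410.0 and 2420.1 to 1673 and 1668 CPM (log2 change -0.53 ± 0.03, adjusted p = 7.0e-14). Among the abundant fibrillar collagens, Col1a2 fell from 2013 and 2028 to 1399 and 1429 CPM (-0.51 ± 0.03), more than Col1a1 at -0.21 ± 0.03 or Col3a1 at -0.17 ± 0.03. The feedback inhibitors of the pathway are often read as direct reporters of SMAD activity. Smad7, which blocks the type I receptor, fell from 69.1 and 69.8 to 57.4 and 56.9 CPM (log2 change -0.28 ± 0.07, adjusted p = 0.0035), and Skil, a SMAD corepressor gene, from 59.3 and 66.6 to 52.6 and 46.0 CPM (log2 change -0.35 ± 0.08, adjusted p = 0.0017). Both were thus slightly lower with E-616452, while Pmepa1, another feedback gene, was slightly higher, from 123 and 123 to 159 and 152 CPM. In the test against a 1.2-fold change the lower count dropped from 13 to 6, and Smad7, Skil, Ski, Has2, Itgav, Col1a1, Col3a1 and the riser Pmepa1 were not called. Skil and Has2 were also not called without CFAE+8 replicate 2, Has2 was not called by DESeq2, and Ski was not called without CFAE+8 replicate 1. No difference was found for Tgfbi, a target induced by the receptor in many cells, with 1006 and 992 CPM against 1021 and 1044 CPM and a 95% interval of -0.03 to 0.13, or for Snai1 (interval -0.12 to 0.12).

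**Figure D2:**
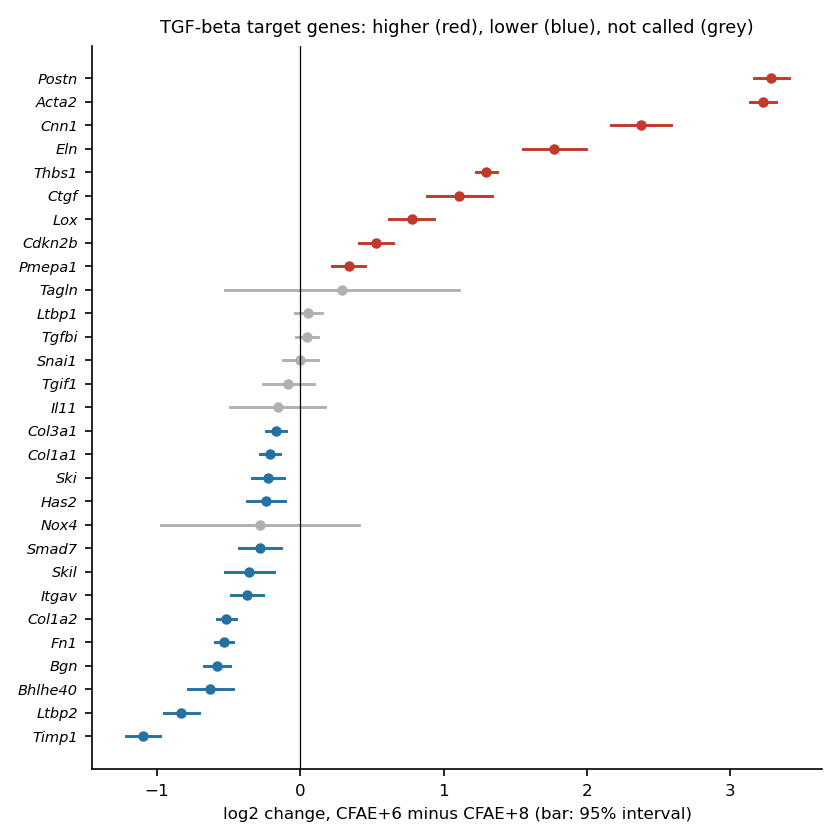
Log2 change (CFAE+6 minus CFAE+8) of 29 of the 30 TGF-beta target genes, points with bars for the 95% interval, red where called higher, blue where called lower, grey where not called. Postn (3.28), Acta2 (3.22) and Cnn1 (2.38) lie far to the right, and the 13 lower genes lie between -0.17 and -1.10.

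Genes of the smooth muscle contractile apparatus rose together. Of 16 tested, 14 were higher (14.3% of all genes were), none was lower, and the median log2 change was 1.19. Acta2, the alpha actin of vascular smooth muscle and of myofibroblasts (ENSMUSG00000035783, mm10 chromosome 19, 34241090 to 34255336), stood at 65.5 and 63.3 CPM with A-83-01 and 597 and 606 CPM with E-616452, a 9.35-fold difference (log2 change 3.22 ± 0.04, adjusted p = 3.5e-29). The MEF libraries held 2677 and 2651 CPM, so the CFAE+6 level lay between the 2 others with no overlap. Actg2, the enteric smooth muscle actin, rose from 1.37 and 1.36 to 25.7 and 28.9 CPM (log2 change 4.32 ± 0.17, adjusted p = 4.8e-18). Myh11, the smooth muscle myosin heavy chain and the most specific marker of differentiated smooth muscle, rose from 1.79 and 1.44 to 27.1 and 25.4 CPM (log2 change 4.01 ± 0.18, adjusted p = 7.0e-17), against 43.1 and 51.5 CPM in MEF. For these 3 genes both CFAE+6 libraries lay above both CFAE+8 libraries and below both MEF libraries. Cnn1, the calponin gene, rose from 8.54 and 9.16 to 47.2 and 44.8 CPM (log2 change 2.38 ± 0.10, adjusted p = 4.4e-17). Lmod1, a leiomodin that nucleates actin filaments, rose from 1.45 and 2.46 to 12.7 and 16.7 CPM (2.90 ± 0.21), and Myl9, the regulatory myosin light chain, from 41.0 and 44.2 to 131 and 130.0 CPM (1.61 ± 0.06). Synpo2, an actin-bundling protein gene, rose by 1.41 ± 0.19 and the intermediate filament gene Des by 0.98 ± 0.14. The widely expressed members changed little: Tpm1 rose from 765 and 756 to 1019.5 and 1020.1 CPM, Cald1 from 604 and 629 to 838 and 811 CPM, and Tpm2, Mylk and Smtn rose by 0.41, 0.33 and 0.25 on the log2 scale. Neither Tagln nor Myocd was called. Tagln had 1.79 and 1.19 CPM against 1.5 and 2.14 CPM, but 67.9% of its exon length is shared with another gene, so its value is uncertain. Myocd, the cofactor of serum response factor in smooth muscle, was at 3.67 and 3.31 CPM and 2.82 and 3.42 CPM, with an interval of -0.76 to 0.45 on the log2 scale.

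The actin genes can be set side by side per kilobase of gene length (RPKM), although their coding sequences are nearly identical and reads may have been split or dropped between them. Mean Acta2 was 36.1 RPKM in CFAE+8, 338 in CFAE+6 and 1496 in MEF. For Actg2 the means were 0.874, 17.5 and 106 RPKM, for Acta1, the skeletal actin, 3.93, 10.7 and 39.1, and for Actc1, the cardiac actin, 0.316, 2.68 and 7.18. All 4 muscle actins thus had the order CFAE+8, CFAE+6, MEF. The cytoplasmic actin Actb was at 1272, 1219 and 1852 RPKM, and no difference between the compounds was found for it (-0.06 ± 0.03, 95% interval -0.13 to 0.00).

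The proximal promoter of Acta2 is printed because the gene had the smallest adjusted p of all 15470 genes and because its regulation is the textbook case of serum response factor acting through paired CArG boxes. The sequence is RefSeq's, 250 bases before to 50 bases after the start of its gene model (chr19:34255324-34255623, minus strand, GRCm38.p6, the same assembly as mm10), written 5′ to 3′ with matches to a CArG box in capitals.
Acta2: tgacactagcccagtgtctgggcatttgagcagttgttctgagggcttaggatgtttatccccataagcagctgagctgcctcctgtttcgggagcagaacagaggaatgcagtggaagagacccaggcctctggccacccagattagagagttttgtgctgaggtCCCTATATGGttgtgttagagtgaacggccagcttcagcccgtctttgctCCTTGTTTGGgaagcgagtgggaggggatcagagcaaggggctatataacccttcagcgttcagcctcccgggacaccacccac
The motif searched was CC, then 6 bases of A or T with 1 other base allowed, then GG, on both strands. The 2 matches, CCCTATATGG and CCTTGTTTGG, start 84 and 34 bases before the RefSeq start, which lies 37 bases upstream of the start in the count table. Such a match was present in 11.3% of 26742 genes with a promoter in the table, and in 3 of the 12 smooth muscle genes found there (Acta1, Acta2 and Myl9). The motif was chosen after the values were seen, and a match is a description of the letters, not of binding.

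**Figure D3:**
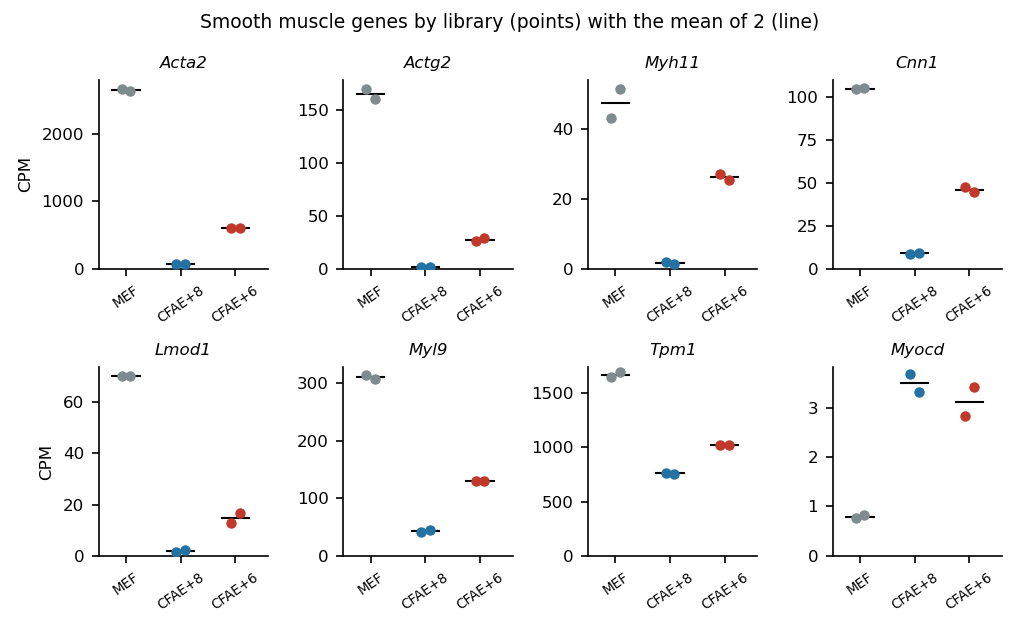
CPM (linear axes from 0) of 8 smooth muscle genes in each MEF, CFAE+8 and CFAE+6 library (points), with the mean of the 2 libraries (line). For the 7 genes other than Myocd both CFAE+6 points lie above both CFAE+8 points and below both MEF points. The 8 genes are a selection from the list, and over all tested genes both CFAE+6 libraries lay above both CFAE+8 libraries for 30.9%.

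Serum response factor also serves the immediate early genes, and these went in both directions. The activity of the factor was not measured, and its part in any of these differences was not tested. Srf itself was at 94.7 and 101 CPM and 104 and 115 CPM (adjusted p = 0.07). Of 22 tested targets of serum response factor and YAP, 8 were higher and 7 lower, with a median log2 change of 0.08. Among the 8, Myl9 and Tpm1 were also counted in the smooth muscle list. Ankrd1, a YAP target and muscle stress gene, rose from 2.22 and 1.7 to 7.23 and 7.53 CPM (1.91 ± 0.22), and Cavin2, a caveolar coat gene, rose by 1.46 ± 0.21. By contrast the YAP targets Amotl2 (-0.30 ± 0.06) and Axl (-0.15 ± 0.05) fell, and Cyr61 differed by only 0.15 ± 0.04. Of 16 AP-1 and EGR genes, 4 were higher and 8 lower. Egr1, a growth factor-induced transcription factor gene, fell from 204 and 200.4 to 86.6 and 87.6 CPM (log2 change -1.22 ± 0.05, adjusted p = 1.4e-16). Fos fell from 38.9 and 29.9 to 18.4 and 16.9 CPM (-0.96 ± 0.12), Junb from 211 and 217 to 125 and 136 CPM (-0.71 ± 0.06), and Ier3 from 179 and 188 to 113 and 117 CPM (-0.67 ± 0.06). Egr3 went the other way, from 31.1 and 26.6 to 48.3 and 47.8 CPM (0.74 ± 0.10), and Jun was at 322 and 320.4 CPM and 327 and 336 CPM, with an interval of -0.05 to 0.14. DESeq2 called 1 higher AP-1 or EGR gene, and 2 were called without CFAE+6 replicate 2 or without CFAE+8 replicate 2. Feedback genes of the ERK pathway, which sits between growth factor receptors and these genes, had 7 higher and 3 lower of 12. Spry1 rose by 1.54 ± 0.11 (24.4% of its exon length is shared with another gene), Dusp6, the ERK phosphatase, rose from 101 and 104 to 138 and 146 CPM (0.47 ± 0.06), and Spred3 fell from 94.0 and 92.5 to 48.9 and 54.0 CPM (-0.86 ± 0.07).

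Collagen genes went in both directions. Of 18 tested, 9 were higher and 7 lower. The basement membrane collagens had the largest differences at high level: Col4a1 rose from 200.3 and 191 to 607 and 625 CPM (log2 change 1.65 ± 0.05, adjusted p = 2.4e-21) and Col4a2 from 173 and 176 to 489 and 517 CPM (log2 change 1.53 ± 0.05, adjusted p = 7.0e-20). These neighbours are transcribed away from a shared promoter, with starts 21 bases apart. Col15a1, of the basement membrane zone, rose by 1.78 ± 0.16 and Col18a1 from 1650.0 and 1670.5 to 2094 and 2221 CPM (0.38 ± 0.04). The fibril-forming Col1a1, Col1a2, Col3a1 and Col11a1 were lower, as were the fibril-associated Col12a1 (-0.35 ± 0.04) and Col16a1, which fell from 491 and 487 to 241 and 237 CPM (log2 change -1.03 ± 0.05, adjusted p = 2.1e-16). Not every member of these classes was lower, since the fibril-forming Col5a3 and the fibril-associated Col14a1 rose by 0.42 ± 0.07 and 0.74 ± 0.11. With the 1.2-fold test 2 lower collagen genes were called. Of 25 matrix remodelling genes 9 were higher and 9 lower. The tissue inhibitors went in opposite directions: Timp3 rose from 44.7 and 41.9 to 113 and 97.2 CPM (1.28 ± 0.07, 21.3% of its exon length shared with another gene), while Timp1 fell. The stromelysins Mmp3 (from 60.9 and 60.4 to 30.0 and 30.5 CPM, -1.01 ± 0.09) and Mmp10 (from 49.8 and 48.5 to 17.5 and 18.5 CPM, -1.45 ± 0.11) fell. Plau, the urokinase gene, rose from 30.0 and 29.8 to 62.1 and 72.7 CPM (1.17 ± 0.08), and its receptor gene Plaur fell (-0.67 ± 0.12). Adam12 and Adamts2, a metalloprotease and the procollagen N-propeptidase, rose by 1.12 ± 0.07 and 0.91 ± 0.05. Mmp14, the membrane metalloproteinase, was at 1133 and 1103 CPM and 1106 and 1099.7 CPM, with an interval of -0.10 to 0.06.

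General fibroblast genes were not shifted as a group. Of 27 tested, 10 were higher and 9 lower, and the median log2 change was 0.03. Lum, a small proteoglycan that organises collagen fibrils, rose from 90.7 and 94.1 to 232 and 200.4 CPM (log2 change 1.23 ± 0.06, adjusted p = 4.9e-15), Fbln1 from 814 and 809.8 to 1355 and 1387 CPM (0.76 ± 0.04) and Thy1 from 1106 and 1094 to 1529.9 and 1540.4 CPM (0.48 ± 0.04). Fap, the fibroblast activation protein gene, fell from 34.5 and 31.0 to 16.3 and 16.8 CPM (-0.99 ± 0.12) and Pdpn, the podoplanin gene, fell as well (-0.76 ± 0.08). Another member, 1 gene, was called at least 2-fold lower and so fell more than these. Vim, Prrx1, Zeb1 and Twist2 were not called, and 46.5% of the exon length of Twist2 is shared with another gene. Summed over the list, fibroblast genes held 17980 and 17940 CPM in CFAE+8, 17780 and 18250 CPM in CFAE+6 and 42620 and 43680 CPM in MEF. The sums with either inhibitor were thus alike, but a few abundant genes such as Col1a1, at a mean of 4058 CPM in CFAE+8, dominate them. Of the single members 70.4% were called, against 26.6% of all genes, and Postn, described above, was the largest riser.

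The BMP branch uses other receptors of the same family and the transducers SMAD1, SMAD5 and SMAD9. Of 24 tested genes 11 were higher and 5 lower, with a median log2 change of 0.20. Among ligands, Bmp4 rose from 83.8 and 89.9 to 186 and 195 CPM (log2 change 1.13 ± 0.06, adjusted p = 1.3e-14), Bmp7 from 81.1 and 77.9 to 116 and 115 CPM (0.54 ± 0.06) and Gdf6 from a mean of 1.83 to 7.11 CPM (1.95 ± 0.26), while Bmp2 fell from 287 and 277 to 191 and 203 CPM (log2 change -0.52 ± 0.05, adjusted p = 1.4e-08). Receptor genes differed by small amounts apart from Acvrl1 (0.84 ± 0.15). The antagonists Grem1 (from 68.5 and 76.4 to 111 and 107 CPM, 0.59 ± 0.06) and Nog (from 4.27 and 6.02 to 11.3 and 9.24 CPM, 0.99 ± 0.20) rose. The ID genes, direct targets of the pathway, split: Id4 rose from 12.4 and 13.7 to 32.2 and 31.6 CPM (log2 change 1.29 ± 0.11, adjusted p = 2.9e-10), Id2 rose by 0.42 ± 0.07, Id1 fell from 413 and 414 to 338 and 356 CPM (-0.25 ± 0.05) and Id3, at 396 and 390.3 CPM against 395 and 394 CPM, had an interval of -0.09 to 0.10. Lower genes of the list numbered 2 with DESeq2 and without CFAE+8 replicate 2, 3 without CFAE+6 replicate 2, and 1 in the 1.2-fold test.

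Pro-inflammatory genes were lower with E-616452. Of 22 tested, 12 were lower (12.3% of all genes were), 1 was higher, and the median log2 change was -0.58. Ccl2, the chemokine that attracts monocytes (ENSMUSG00000035385, mm10 chromosome 11, 82035571 to 82037453), stood at 91.8 and 87.1 CPM with A-83-01 and 32.1 and 24.8 CPM with E-616452 (log2 change -1.65 ± 0.09, adjusted p = 5.2e-15). The 2 groups did not overlap, and MEF, at 121 and 117 CPM, lay above both. The neutrophil chemokine genes Cxcl1 (from 10.2 and 11.8 to 3.79 and 2.05 CPM, -1.91 ± 0.23) and Cxcl5 (from 14.0 and 15.0 to 3.35 and 3.51 CPM, -2.08 ± 0.19) fell. Cxcl2 fell from a mean of 2.68 to 0.218 CPM (-3.56 ± 0.58), and was at 0.188 CPM in MEF. Csf1, the growth factor of macrophages, fell from 120.1 and 119.6 to 64.2 and 67.1 CPM (log2 change -0.87 ± 0.06, adjusted p = 3.7e-12), and Lif, a cytokine of the interleukin 6 family, fell too (-0.79 ± 0.12). The adhesion genes Vcam1 (from 18.5 and 24.6 to 8.81 and 9.16 CPM, -1.26 ± 0.15) and Icam1 (-0.46 ± 0.10, 11.7% of its exon length shared with another gene) fell as well. Subunits and inhibitors of the transcription factor NF-kappaB, most of them its own targets, were lower too: Nfkbia from 104 and 113 to 59.3 and 60.9 CPM (log2 change -0.85 ± 0.07, adjusted p = 8.9e-11), Nfkb1 from 76.7 and 79.0 to 47.2 and 48.6 CPM (-0.70 ± 0.07), Relb (-0.90 ± 0.11) and Nfkb2 (-0.46 ± 0.07, 18.1% of its exon length shared with another gene). Not every NF-kappaB target followed. No difference was found for Ptgs2, the inducible cyclooxygenase, with an interval of -0.14 to 0.17, nor for Ccl7, which lies beside Ccl2 on chromosome 11 and was at 51.1 and 51.8 CPM against 48.5 and 47.4 CPM. Il6 had 1.62 and 2.63 CPM against 4.05 and 3.0 CPM (adjusted p = 0.091). The riser, Tnfaip2 (0.21 ± 0.06), was not called without CFAE+8 replicate 2 or in the 1.2-fold test.

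Promoters are printed for the 3 pro-inflammatory genes that carry a classical decamer of the NF-kappaB site, on either strand, within 250 bases before to 50 after the RefSeq start (GRCm38.p6). They lie at chr5:90890995-90891294 (Cxcl1, plus strand), chr5:90903649-90903948 (Cxcl2, plus strand) and chr12:55492598-55492897 (Nfkbia, minus strand), and the decamer searched is spelled by the capitals.
Cxcl1: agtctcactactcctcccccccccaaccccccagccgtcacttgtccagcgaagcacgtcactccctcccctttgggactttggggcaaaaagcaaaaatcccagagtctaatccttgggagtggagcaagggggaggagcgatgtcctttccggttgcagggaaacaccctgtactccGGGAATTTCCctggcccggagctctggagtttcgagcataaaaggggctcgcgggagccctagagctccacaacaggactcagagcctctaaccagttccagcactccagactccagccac
Cxcl2: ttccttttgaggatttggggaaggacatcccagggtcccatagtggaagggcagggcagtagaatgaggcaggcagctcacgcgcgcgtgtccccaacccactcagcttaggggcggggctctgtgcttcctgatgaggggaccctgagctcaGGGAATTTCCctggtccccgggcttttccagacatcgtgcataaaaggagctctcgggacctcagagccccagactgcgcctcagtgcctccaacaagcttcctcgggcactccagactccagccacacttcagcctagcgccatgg
Nfkbia: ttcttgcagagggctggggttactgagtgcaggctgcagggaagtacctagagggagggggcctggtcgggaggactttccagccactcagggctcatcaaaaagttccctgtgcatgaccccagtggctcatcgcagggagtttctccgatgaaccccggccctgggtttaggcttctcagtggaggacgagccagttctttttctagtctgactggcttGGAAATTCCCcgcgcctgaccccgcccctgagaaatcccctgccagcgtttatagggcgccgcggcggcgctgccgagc
The match starts 71, 97 and 29 bases before the RefSeq start, and Nfkbia holds it in the form of the opposite strand. This exact decamer was held in the window by 29 of 26742 genes (0.108%), and by 3 of the 16 pro-inflammatory genes with a promoter entry. The shares cannot be compared, because the decamer was picked from the sequences of these 3 genes. Cxcl1 and Cxcl2 also lie close together on chr5 and are not independent cases. Promoters of Ccl2, Ccl7, Cxcl5, Nfkb1, Relb and Vcam1 were not analysed here. The decamer was picked after the values and the sequences were seen, other forms of the site were not searched, and no binding was measured.

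**Figure D4:**
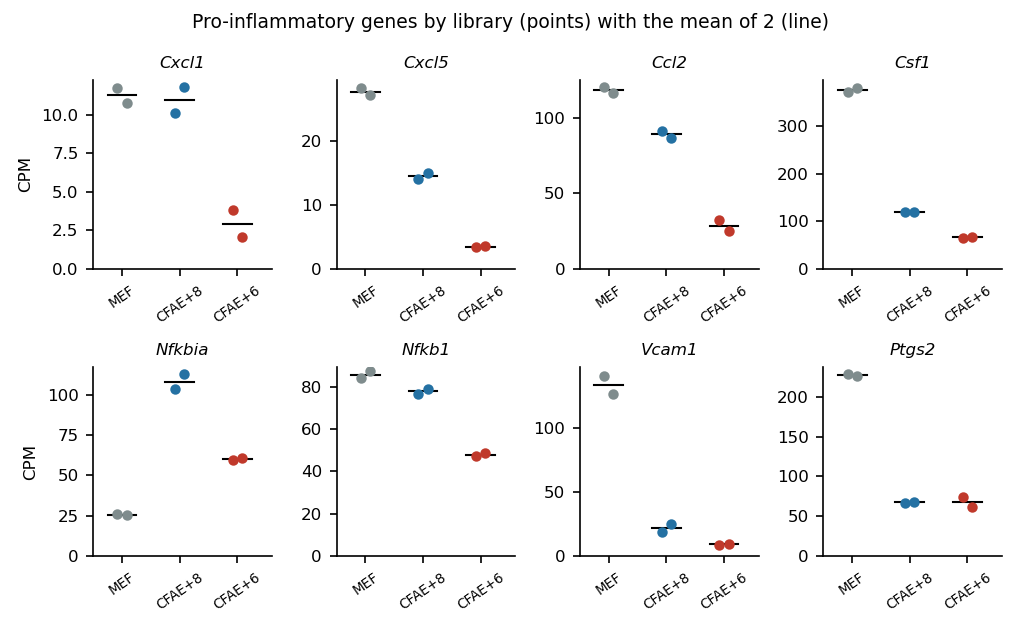
CPM (linear axes from 0) of 8 pro-inflammatory genes in each MEF, CFAE+8 and CFAE+6 library (points), with the mean of the 2 libraries (line). For the 7 genes other than Ptgs2 both CFAE+6 points lie below both CFAE+8 points, as was so for 30.0% of all tested genes. The 8 genes are a selection from the list, and Ccl7 and Il6, which were not called, and the riser Tnfaip2 are not shown.

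Markers of macrophages were measured beside this group. Summed over the 16 listed markers they held 54.6 and 53.6 CPM in CFAE+8, 30.4 and 27.5 CPM in CFAE+6 and 245.5 and 242.6 CPM in MEF. Of the 15 that were tested, 3 were lower and none higher. With 20% called against 26.6% of all genes, the share gives no result about the list. The 3 were Marco from 7.26 and 5.85 to 0.176 and 0.171 CPM, Lyz2 from 14.9 and 14.7 to 7.58 and 6.25 CPM and Cd68 from 12.5 and 11.5 to 6.52 and 4.79 CPM. The defining genes Ptprc and Csf1r were low in both groups, at a mean of 0.170 and 0.0869 CPM and of 2.08 and 1.99 CPM, and Marco had no counts in MEF. In bulk RNA fewer cells of a type and less RNA per cell cannot be told apart, and the part of macrophages in the chemokine differences was not tested. Interferon-stimulated genes had 2 higher and 4 lower of 24, and these 25% lay close to the 26.6% of all genes. Tap1, a peptide transporter gene, rose from 39.9 and 35.7 to 46.9 and 50.6 CPM (0.37 ± 0.09) and Stat2, of interferon signalling, from 19.8 and 17.6 to 23.4 and 22.7 CPM (0.30 ± 0.11). B2m, a component of the class I antigen complex, fell from 181 and 179.7 to 126 and 119 CPM (-0.55 ± 0.06), and Ddx58, a viral RNA sensor gene, fell as well (-1.20 ± 0.15).

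Both groups received the other compounds, and the targets of their pathways were examined next. Of 17 Wnt/beta-catenin targets 9 were higher and 6 lower, with a median of 0.15. The strongest reporters differed little: Axin2 was at 412 and 403 CPM and 356 and 375 CPM (-0.16 ± 0.05), Nkd1 at 666 and 669.9 CPM and 539 and 594 CPM (-0.24 ± 0.05), and Sp5 was not called (interval -0.23 to 0.07), nor was Dkk1 (interval -0.30 to 0.13). Lgr5, the R-spondin receptor gene, rose from 5.38 and 6.62 to 16.6 and 15.6 CPM (1.42 ± 0.14), Rnf43 rose by 0.89 ± 0.15 and Tcf7 fell from 186 and 184 to 134 and 123 CPM (-0.52 ± 0.06). In MEF, without CHIR99021, the mean of Lgr5 was higher, at 78.7 CPM, while the means of Axin2 and Nkd1 were 9.14 and 6.72 CPM. Without CFAE+8 replicate 1 or without CFAE+8 replicate 2, 3 lower targets were called. Of 15 retinoic acid genes 5 were higher and 6 lower. Crabp1, a cellular retinoic acid binding protein gene, rose from 1797 and 1750.1 to 3298 and 3422 CPM (log2 change 0.92 ± 0.04, adjusted p = 2.7e-17), and Aldh1a2, the main enzyme of retinoic acid synthesis in the embryo, from 9.22 and 6.11 to 44.4 and 41.3 CPM (log2 change 2.48 ± 0.14, adjusted p = 2.3e-14). Stra6, the retinol uptake receptor gene, fell from 753 and 738 to 389.8 and 389 CPM (log2 change -0.94 ± 0.05, adjusted p = 4.0e-15), and was at 0.380 and 0.0916 CPM in MEF. Rarb, a classical receptor target, was at 56.8 and 46.6 CPM and 46.7 and 49.8 CPM, with an interval of -0.31 to 0.11. Its value is uncertain, because 38.4% of its exon length is shared with another gene. Cyp26a1 and Cyp26b1, also on the list, were called higher, while Dhrs3 was not called. The mean of Cyp26a1 went from 1.701 to 5.662 CPM (1.73 ± 0.32) and that of Cyp26b1 from 402.02 to 496.79 CPM (0.31 ± 0.05). Lower retinoic acid genes numbered 3 with DESeq2, without CFAE+6 replicate 2 and without CFAE+8 replicate 2. Of 19 cyclic AMP targets 6 were higher and 3 lower (3 higher with DESeq2). Areg, an EGF receptor ligand gene, rose from 9.3 and 9.07 to 32.9 and 33.8 CPM (1.86 ± 0.14), and the phosphodiesterase genes Pde10a and Pde3a rose by 0.89 ± 0.10 and 0.53 ± 0.08 while Pde4a fell (-0.42 ± 0.07).

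The Mediator kinases are the proteins that MSC2530818 blocks. Of 7 genes of their module 3 were lower and none higher (42.9% called, against 26.6% of all genes), and DESeq2 called 1. Cdk8 was at 59.8 and 66.5 CPM and 68.9 and 65.4 CPM (interval -0.06 to 0.24), and Ccnc, which encodes their cyclin, at 20.7 and 17.7 CPM and 22.2 and 18.1 CPM (interval -0.20 to 0.33). Cdk19 fell from 24.0 and 23.2 to 17.9 and 18.1 CPM (log2 change -0.39 ± 0.12, adjusted p = 0.016). That call was lost with DESeq2 and when any 1 of the 4 libraries was left out. Of 8 DOT1L complex genes 1 was higher and 2 were lower (37.5% called, against 26.6% of all genes). The fall of Dot1l itself (-0.17 ± 0.06) was not called by DESeq2, or without CFAE+6 replicate 1, CFAE+6 replicate 2 or CFAE+8 replicate 1. Mllt3, a reader of acylated histones, rose from 84.8 and 93.0 to 166 and 164 CPM (log2 change 0.89 ± 0.06, adjusted p = 2.2e-12).

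Proliferation genes were lower with E-616452 by small amounts. Of 36 cell cycle genes 19 were lower and none higher, with a median log2 change of -0.23. Mki67, the proliferation marker, fell from 178 and 172 to 99.4 and 96.8 CPM (log2 change -0.83 ± 0.06, adjusted p = 8.9e-12), Mcm6, of the replicative helicase, from 151 and 155 to 111 and 110.2 CPM (-0.47 ± 0.06), Tk1, the thymidine kinase gene, from 49.0 and 47.8 to 28.2 and 32.3 CPM (-0.68 ± 0.09), and Top2a from 311 and 311 to 236 and 242 CPM (-0.38 ± 0.05). Lower genes of the list numbered 10 with DESeq2, 12 without CFAE+6 replicate 2, 11 without CFAE+8 replicate 2 and 5 in the 1.2-fold test. Of 15 p53 and senescence genes 9 were higher and 1 lower. Perp, a junction gene induced by p53, rose from 21.9 and 20.4 to 43.8 and 50.7 CPM (1.16 ± 0.09), and Cdkn2a and Cdkn2b, neighbouring inhibitors of the cell cycle, rose by 0.46 ± 0.06 and 0.53 ± 0.06. No difference was found for Cdkn1a, the p21 gene, at 774 and 820.2 CPM against 789 and 828 CPM (interval -0.06 to 0.11).

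Genes of cholesterol synthesis were higher and most called genes of glycolysis lower. Of 24 cholesterol synthesis genes 17 were higher and none lower, with a median of 0.32. Cyp51 rose from 141 and 151 to 197 and 188 CPM, Sqle from 115 and 106 to 142 and 147 CPM and Hsd17b7 from 78.0 and 78.9 to 104 and 101 CPM, and in MEF the means of these 3 were 406, 273 and 143 CPM. Of 19 glycolysis and hypoxia genes 12 were lower and 1 was higher. The enzymes Hk1 (-0.44 ± 0.07), Pfkl (-0.44 ± 0.07), Eno1 (-0.29 ± 0.04) and Aldoa (-0.25 ± 0.04) fell. The riser was Egln3, a hypoxia-induced oxygen sensor gene, from 6.66 and 5.0 to 11.2 and 12.5 CPM (log2 change 1.02 ± 0.19, adjusted p = 1.2e-04), the largest change in the list. Gapdh, a gene with many near-identical pseudogenes, was listed at a mean of only 22.6 CPM in CFAE+8, and its fall (-0.87 ± 0.14) is uncertain. Under the 1.2-fold test 4 cholesterol and 3 lower glycolysis genes were called, and without CFAE+8 replicate 2 the lower glycolysis genes numbered 7. Of 26 Hox genes 9 were lower and none higher (34.6% called, against 26.6% of all genes). The most abundant of the 9 was Hoxb9, from 134 and 133 to 103 and 103 CPM (-0.37 ± 0.06). DESeq2 called 4 of these Hox genes, and 5 were called without CFAE+8 replicate 1.

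**Figure D5:**
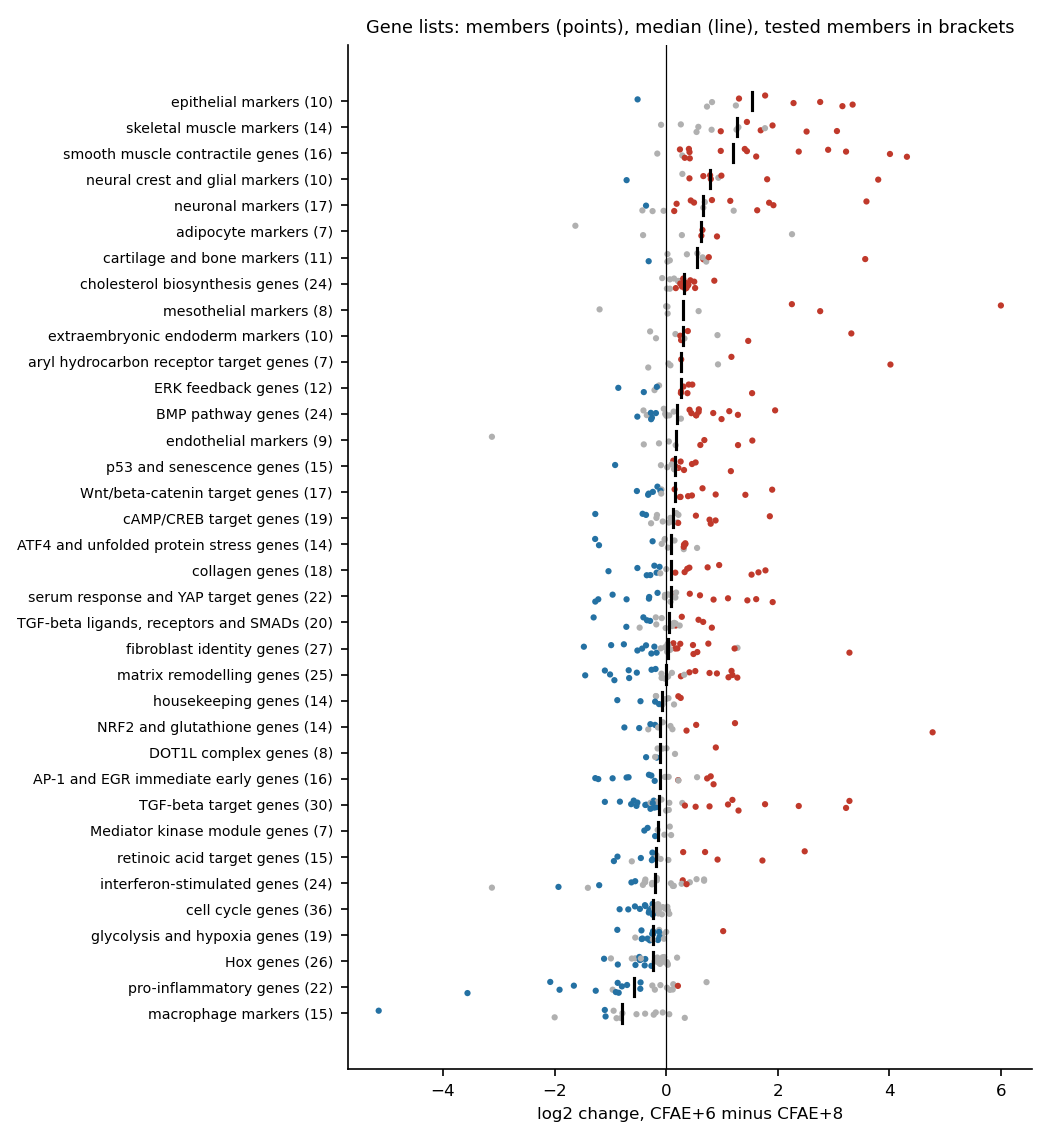
Log2 change (CFAE+6 minus CFAE+8) of every tested member (points; red higher, blue lower, grey not called) of the 36 gene lists with at least 7 tested members, ordered by the median (black line). Smooth muscle genes (median 1.19) stand near the top, and pro-inflammatory genes (-0.58) near the foot.

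Markers of other cell types were higher in several lists, mostly at low levels. Of 10 epithelial markers 6 were higher and 1 lower. Krt19, a keratin of simple epithelia and mesothelium, rose from 1.28 and 1.87 to 11.3 and 10.2 CPM (log2 change 2.76 ± 0.24, adjusted p = 2.9e-10), Krt18 from 5.8 and 5.77 to 13.0 and 15.6 CPM (1.31 ± 0.17) and Krt8 from 2.9 and 2.04 to 8.46 and 8.47 CPM (1.77 ± 0.24). Cdh1, the E-cadherin gene that defines epithelia, rose but stayed at 1.85 and 1.37 CPM, Epcam was at 2.03 and 0.685 CPM and not called, and Dsp, the desmoplakin gene, was the abundant member and fell from 202 and 199 to 138 and 143 CPM (-0.51 ± 0.06). Summed over the epithelial list, CFAE+6 held 184 and 189.7 CPM and CFAE+8 held 215 and 212 CPM, most of it from Dsp. Of 8 mesothelial markers 3 were higher (37.5% called, against 26.6% of all genes), a share that rests on few genes. Wt1 rose from 1.11 and 0.933 to 5.38 and 4.45 CPM (2.25 ± 0.35), and Upk3b, with no counts in CFAE+8 and 16 in CFAE+6, was higher by a factor of at least 5.44, taking 3 counts over the CFAE+8 group as the floor. Msln, the mesothelin gene, was at 0.793 and 1.63 CPM in CFAE+6 and not called.

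Of 14 skeletal muscle markers 6 were higher and none lower. Among the 6, Des and Acta1 were also counted in the smooth muscle list. Myh3, the embryonic myosin, rose from 2.99 and 3.48 to 11.5 and 12.8 CPM (1.91 ± 0.20), and Actc1 from 0.768 and 0.254 to 4.32 and 4.37 CPM (3.06 ± 0.39). The regulators Myod1, which was called higher, and Myog, which was not, stayed low, at 1.06 and 0.514 and 0.353 and 0.770 CPM in CFAE+6. Of 10 neural crest and glial markers 7 were higher and 1 lower. Tfap2b, a transcription factor gene of the neural crest, rose from 0.854 and 0.424 to 9.52 and 8.56 CPM (log2 change 3.80 ± 0.32, adjusted p = 2.7e-10), Fezf2, a forebrain transcription factor gene, from 10.1 and 12.3 to 40.5 and 38.0 CPM (log2 change 1.81 ± 0.12, adjusted p = 3.5e-12), and Zic1 fell from 77.7 and 73.0 to 45.7 and 46.5 CPM (-0.71 ± 0.09). Of 17 neuronal markers 10 were higher and 1 lower, with 6 higher without CFAE+8 replicate 2. Vgf, a neurosecretory protein gene, rose from 6.23 and 4.92 to 62.8 and 71.6 CPM (log2 change 3.59 ± 0.12, adjusted p = 1.1e-19), and Nefm, a neurofilament gene, from 69.9 and 80.5 to 170.4 and 163 CPM (1.15 ± 0.07, 19.2% of its exon length shared with Nefl). Tubb3, the neuronal tubulin, fell from 66.5 and 71.5 to 52.5 and 55.0 CPM (-0.36 ± 0.08). Of 10 extraembryonic endoderm markers 5 were higher: Sox17 rose from 0.854 and 0.933 to 6.79 and 11.2 CPM (log2 change 3.32 ± 0.33, adjusted p = 5.2e-09, 16.8% of its exon length shared with another gene), Sall4 from 3.24 and 2.88 to 8.55 and 8.47 CPM (1.47 ± 0.24), and Gata6, Lama1 and Pdgfra by less than 0.4 on the log2 scale. The list had 3 higher members without CFAE+8 replicate 2 and 2 in the 1.2-fold test. Of the pluripotency markers only Sox2 and Klf4 could be tested, and Sox2 rose from 2.99 and 1.61 to 8.29 and 8.3 CPM (1.85 ± 0.26). Endothelial markers had 4 higher of 9 (44.4% called, against 26.6% of all genes). Among them Kdr, a VEGF receptor gene, rose from 21.3 and 19.8 to 53.2 and 47.5 CPM (1.29 ± 0.10). Cdh5 and Erg were called higher too, Erg from a mean of 0.767 CPM in CFAE+8 to 2.25 CPM in CFAE+6 (adjusted p = 0.014). Pecam1 and Cldn5 had too few counts to be tested. DESeq2 called 2 of the list, Kdr and Flt1, and 2 were called without CFAE+6 replicate 2 or without CFAE+8 replicate 2. Adipocyte markers had 3 higher of 7 (42.9% called), and cartilage and bone markers 3 higher and 1 lower of 11 (36.4%), against 26.6% of all genes. The stress lists were mixed, with 4 higher and 4 lower of 14 NRF2 and glutathione genes and 4 higher and 3 lower of 14 ATF4 genes, and of 14 housekeeping genes 2 were higher and 4 lower.

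Among genes of at least 5 CPM, the largest rise was in Nr5a2, a nuclear receptor gene, whose counts went from 3 in CFAE+8 to 155 in CFAE+6. The scaled ratio was 52.7, and counting error alone allows 17.7 to 258 at 95%. Calb1, a calcium-binding protein gene of neurons and kidney, rose from 1.02 and 0.763 to 23.7 and 27.1 CPM (log2 change 4.81 ± 0.23, adjusted p = 1.3e-15) and had no counts in MEF. Aldh3a1, an aldehyde dehydrogenase gene induced by the aryl hydrocarbon receptor, rose from 0.341 and 0.424 to 5.73 and 7.02 CPM (4.02 ± 0.40). Of 7 targets of that receptor 3 were higher and none lower. Ahr, the receptor gene, rose from 22.3 and 23.1 to 53.1 and 49.0 CPM (1.17 ± 0.09), while the classical target Cyp1a1 was at 2.22 and 1.1 CPM and 3.35 and 3.0 CPM (adjusted p = 0.066) and Tiparp had an interval of -0.07 to 0.22. Gdf7 and Bmp8b, ligands of the BMP class, rose to 6.17 and 4.88 and 5.55 and 5.65 CPM from under 1 CPM, and 12.2% of Bmp8b exon length is shared with another gene. Sfrp5, a secreted Wnt antagonist gene, rose from 0.598 and 1.78 to 9.96 and 14.1 CPM (3.33 ± 0.32). Igfbp5, a secreted binder of insulin-like growth factors and an abundant gene, rose from 75.1 and 74.3 to 407 and 372 CPM (log2 change 2.38 ± 0.06, adjusted p = 2.2e-23). At the other end after Marco stood Steap4, a metalloreductase gene induced by cytokines, which fell from 12.7 and 13.1 to 1.15 and 0.942 CPM (log2 change -3.61 ± 0.29, adjusted p = 5.1e-11). Klf2, a Kruppel-like factor gene, fell from 8.02 and 7.29 to 1.23 and 1.03 CPM (-2.75 ± 0.28), and the cytokine receptor genes Il31ra (means from 5.4 to 1.13 CPM) and Il13ra1 (means from 32.5 to 11.3 CPM) fell. Wisp2, a matricellular gene of the CCN family to which Ctgf also belongs, fell from 8.28 and 9.5 to 2.12 and 1.8 CPM (-2.18 ± 0.21), opposite to Ctgf. Pak3, Serpina3g and Pon3 completed the 12 largest falls, with changes of -1.66, -1.62 and -1.48, and Serpina3g belongs to a cluster of near-identical copies.

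Addition of MSC2530818 to the A-83-01 cocktail gives another level for the same genes. Both comparisons use the same CFAE+8 libraries, so their values are given side by side and no overlap is drawn from them. Over the log CPM of all tested genes, the CFAE+6 libraries correlated at 0.9856 to 0.9868 with those of CFAE+8+MSC. With the CFAE+8 libraries their correlations were lower, at 0.9745 to 0.9748. Acta2 was at 1278 and 1259 CPM in CFAE+8+MSC, above the 597 and 606 CPM of CFAE+6, and Myh11 at 137 and 139.7 CPM against 27.1 and 25.4 CPM. Postn was at 339 and 344 CPM against 317 and 312 CPM. For Fn1 the directions differed: 3011 and 3100.5 CPM in CFAE+8+MSC (0.34 ± 0.03 against CFAE+8, adjusted p = 6.8e-10), but 1673 and 1668 CPM in CFAE+6, below the 2410.0 and 2420.1 CPM of CFAE+8. Ccl2 was at 40.8 and 38.7 CPM in CFAE+8+MSC and 32.1 and 24.8 CPM in CFAE+6, and Igfbp5 at 281 and 269 CPM and 407 and 372 CPM.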

How the data were processed

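RNA was sequenced from 8 libraries, 2 in each of 4 groups, and 4 of them form the comparison reported. The authors deposited whole-number read counts per gene (no normalization in the table), and per the submitters' processing notes the genome was mm10 and the tools included Subread, featureCounts and DESeq2. Tool versions, counting settings and annotation release: not given in the sources used here. Per the labels' protocols the library kit was NEBNext Ultra, which does not mark strand, so antisense and overlapping genes cannot be told apart. Groups and replicate numbers came from the sample titles. Each library total lay between 10958430 and 11913143 counts.

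From the counts, genes were filtered with filterByExpr, scaled with TMM and fitted with edgeR 4.0.16 (R 4.3.3), 1 mean per group over all 8 libraries (4 residual degrees of freedom, common biological coefficient of variation 0.0445), and tested with the quasi-likelihood F test. The call threshold was 0.05 on p adjusted by Benjamini-Hochberg across 15470 genes. The SE is the size of the coefficient over the square root of F. Tested genes held 99.9% of the counts. CPM and RPKM use the TMM scale and the deposited gene length. Genes with 0 to 3 counts in a group got a ratio with an exact counting interval or a bound against 3 counts, which cover counting error only. Exon overlaps come from GENCODE M21, in which 54409 identifiers were found, and they are not printed for every gene that has one. Promoters come from RefSeq (GRCm38.p6).

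Named genes were the 12 largest rises and 12 largest falls with at least 5 CPM in 1 group and no overlap, up to 4 called members per list with the smallest adjusted p, all TGF-beta targets, ligands, receptors and SMADs, the 5 genes of lowest adjusted p, and the Mediator kinase genes Cdk8 and Cdk19 with Ccnc. A few genes that the rule covers are not reported here. Other genes, those of the closing observations included, were named after their values were seen. The 38 gene lists, like the comparison itself, were chosen with earlier results of these data known. Lists are described by counts and medians, without a set test. The alternatives were other scalings and filters, DESeq2 1.42.0, a fit of the 4 libraries alone, a replicate block, a test against a 1.2-fold change, and each library left out. The scripts' tests were checked on simulated data.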

Additional observations from a re-analysis of the deposited data

How the results depend on the processing

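The counts of 2215 higher and 1901 lower genes became 2258 and 1845 with DESeq2 size factors, 2242 and 1862 with upper-quartile scaling, 2190 and 1828 without a filter, 2215 and 1896 with a filter of 1 CPM in 2 libraries, and 2261 and 1921 when only the 4 libraries were fitted. DESeq2 gave 1449 and 1076, with 106 genes at least 2-fold lower against 171. The test against a 1.2-fold change gave 1085 and 569, and left 6 of the 13 lower TGF-beta targets. Leaving out each library in turn gave 1536 to 1873 higher and 1184 to 1500 lower genes. No gene called in the report was called in the opposite direction in any of these 12 alternatives, and the median log2 change of all genes stayed between -0.0031 and 0.0077. Replicates of the same number did not deviate together (correlations of -0.021 to 0.0512 over the 6 pairs of groups, -0.0063 for CFAE+8 with CFAE+6), and with the replicate number as a block 2221 genes were higher and 1903 lower, of which 2186 and 1876 were among the main calls. Of the 186 named genes, calls were lost for 10 with DESeq2, 39 in the 1.2-fold test, 1 without a filter, 1 with the block (Cdh5, adjusted p = 0.057) and 7 to 14 when a library was left out. Inhbb, not called (adjusted p = 0.053), was called in 8 alternatives, and Smad6, not called (-0.18, adjusted p = 0.16), was called without CFAE+6 replicate 2 (-0.36, adjusted p = 0.013). Genes under about 1 CPM have few counts, and their ratios are imprecise.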

Other observations

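Single genes outside the lists also differed between E-616452 and A-83-01. They were picked after their values were seen, so each p-value describes a chosen gene and nothing is said of any group. Some were at a like level in CFAE+8+MSC, which also holds A-83-01, and in CFAE+6. The means in these groups were 16.79 and 17.41 CPM for Wnt16, 22.52 and 22.57 CPM for Rspo1 and 38.17 and 34.73 CPM for Calcb. Others differed more, with means of 6.228 and 10.457 CPM for Dio2 and 12.195 and 20.984 CPM for Cntn1. Wnt16, a Wnt ligand gene, rose from 2.39 and 3.73 to 17.3 and 17.5 CPM (log2 change 2.50 ± 0.19, adjusted p = 2.3e-11), Wnt7b from 6.74 and 5.94 to 19.3 and 21.2 CPM (1.68 ± 0.16), Rspo1, a ligand of Lgr5, on average from 5.02 to 22.6 CPM (2.17 ± 0.16), and Sostdc1, an antagonist of Wnt and BMP, from 5.21 and 3.82 to 15.6 and 13.4 CPM (1.68 ± 0.20). Among deiodinase genes of thyroid hormone metabolism Dio3, the inactivating enzyme, rose from 2.48 and 2.04 to 15.2 and 17.0 CPM (log2 change 2.83 ± 0.21, adjusted p = 7.6e-12) and Dio2, the activating enzyme, on average from 3.28 to 10.5 CPM (1.67 ± 0.22). Igfbp2 rose from 7.51 and 6.19 to 27.1 and 28.8 CPM (2.03 ± 0.14), beside Igfbp5. Calca, which encodes calcitonin and a neuropeptide, rose from 24.7 and 26.5 to 87.2 and 75.2 CPM (1.67 ± 0.09), Calcb from 8.88 and 7.89 to 36.8 and 32.6 CPM (2.05 ± 0.13) and Grp, with no counts in MEF, from 2.56 and 1.87 to 12.5 and 11.5 CPM (2.43 ± 0.24). The glutamate receptor genes Grin2a, Gria4 and Grik1 and the GABA receptor gene Gabra2 rose at low levels, Grin2a from 1.28 and 0.848 to 5.91 and 6.76 CPM, Gria4 from 2.56 and 1.95 to 8.73 and 6.93 CPM, Grik1 from 1.79 and 1.7 to 8.37 and 6.33 CPM and Gabra2 from 0.512 and 1.7 to 8.2 and 5.65 CPM. Cntn1, a neural adhesion gene, rose from 2.48 and 2.71 to 24.6 and 17.4 CPM (3.01 ± 0.22).

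Other single genes, chosen in the same way, fell. Here too some were at a like level in CFAE+8+MSC and CFAE+6, with means of 190 and 185 CPM for Pcolce. For Nfkbiz these means were 31.3 and 20.85 CPM. Socs3, an inhibitor of cytokine signalling, fell from 83.1 and 79.9 to 42.6 and 38.0 CPM (log2 change -1.02 ± 0.08, adjusted p = 2.7e-11), Nfkbie and Nfkbiz, members of the I-kappaB family, from 15.3 and 15.9 to 6.43 and 7.1 CPM (-1.20 ± 0.17) and from 41.7 and 44.6 to 21.2 and 20.5 CPM (-1.05 ± 0.09), and Zc3h12a, which degrades cytokine mRNAs, from 9.65 and 8.74 to 2.82 and 3.94 CPM (-1.44 ± 0.21). Tmem173, which encodes the innate sensor STING, fell on average from 51.5 to 21.3 CPM (-1.27 ± 0.09), Arrb1, an arrestin gene, from 142 and 141 to 58.4 and 51.0 CPM (-1.37 ± 0.07), and Pcolce, an enhancer of procollagen cleavage, from 446 and 434 to 185 and 185 CPM (-1.25 ± 0.05). Of 1069 tested transcription factor genes, by the family column of the deposited table, 151 were higher and 147 lower (27.9% called, against 26.6% of all genes). At 2-fold or more 61 were higher and 6 lower, 5.71% and 0.561% of them against 4.47% and 1.11% of all genes, with Klf2, Fosb and Egr1 among the lower genes. Among the 61, Tfap2c rose from 17.9 and 19.5 to 68.4 and 73.4 CPM (1.92 ± 0.09), Msx3 from 2.65 and 1.95 to 13.5 and 13.4 CPM (2.54 ± 0.22) and Osr1 from 1.54 and 1.19 to 6.61 and 7.79 CPM (2.39 ± 0.24). In CFAE+8+MSC the means were 70.99 CPM for Tfap2c, 14.64 CPM for Msx3 and 4.341 CPM for Osr1.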
